A study of Mus musculus with 6 samples.

Results

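The genes described here are 47 components of the Wnt pathway: 13 ligands, 14 receptors and co-receptors, 10 secreted modulators and 10 intracellular components, among them transcription factors and feedback targets. They were chosen by gene name, as every spot on the array whose annotated symbol was on that list. All 47 were on the array, with 54 spots, out of 18505 named genes and 34967 spots for mouse transcripts. Tcf7 had no symbol in the platform annotation and was taken through the RefSeq accession in the array file. Total RNA of 6 mouse embryo samples was amplified and hybridised, 1 sample per array, to 1-colour CodeLink Mouse Whole Genome arrays, on which a short oligonucleotide probes each transcript. Of the samples, 3 (numbered 6, 9 and 11) were Fkbp8 null and 3 (numbered 7, 10 and 12) were wild type. Fkbp8 encodes a membrane-anchored member of the FK506-binding protein family, and the study compared the genotypes. Both groups were on the same mixed C57BL/6 and 129S5/SvEvBrd background and were taken on embryonic day 9.5, at an average of 21.6 somite pairs, with the posterior neuropore still open. How the null allele was made, the sex of the embryos and whether a sample was 1 embryo are not given in the sources used here. The p-values therefore measure the spread between these samples, which may be technical.

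Wnt proteins are secreted lipid-modified ligands that bind frizzled receptors. With the co-receptors Lrp5 and Lrp6 this stops the Axin and Apc complex from degrading beta-catenin, which then acts with Tcf and Lef proteins on target genes. Other ligands act through Ror receptors and cell polarity without beta-catenin. In the posterior embryo of this age, Wnt3a keeps the tail bud progenitors that feed the spinal cord and the presomitic mesoderm, Wnt1 and Wnt3a mark the roof of the neural tube, and Wnt6 marks surface ectoderm. R-spondins strengthen the signal, and Dkk, Sfrp, Frzb and Wif1 proteins damp it outside the cell. Axin2, Nkd1, Lef1, Sp5 and T are known targets.

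The tissue was cut off below the forelimb pit, although the source label says anterior and the tissue label posterior neural tube. Otx2, which marks the anterior brain, was near background on all 6 arrays, while Lhx2, Six3 and Dlx2 of the same list of 6 head markers were above background on all 6, with Lhx2 highest in wild-type sample 10 (log2 signal 9.15). The tail markers T and Cdx2 were above background on every array. Fkbp8 itself had a log2 signal of 6.23, 6.29 and 6.42 in the null samples, near background on all 3 arrays, and 7.66, 7.92 and 8.68 in the wild-type samples, at least 3.33-fold lower in the null arrays. No Wnt gene of the list lies within 10 Mb of Fkbp8 in the RefSeq gene table. Between 63.3% and 69.2% of transcript spots per array were above background, and the median spot was 2.33 to 3.80 times the median negative control. The log2 signals of wild-type sample 10 correlated at 0.977 and 0.975 with wild-type samples 7 and 12, and at 0.979 to 0.985 with the null samples. Samples 7 and 12 correlated at 0.981 with each other, and sample 7 at 0.979 to 0.986 with the null samples. The lowest correlations of all pairs were those of sample 10 with samples 12, 7 and 6 (0.9745, 0.9773 and 0.9791). Its correlations with null samples 9 and 11 were both 0.985. Sample 10 was the one sample with a female pattern, with a log2 signal of 10.35 for Xist against 5.98 to 6.53 elsewhere and 6.16 for Eif2s3y against 8.63 to 8.90. Values that depend on it are given with and without it.

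Promoter sequence was set beside the values, since Tcf and Lef proteins bind the words CTTTGAA and CTTTGTT. Windows from 250 bases before to 50 after the annotated start were available in RefSeq for 33 of the 47 genes (GRCm38.p6). At least 1 of these 7-letter words, on either strand, was found in 4 of the 42 windows of these genes (9.52%) and in 3478 of all 32851 windows (10.6%). The windows with a match belong to Dkk1, Fzd7, Tcf7l2 and Wnt3, the last one past the start. Tcf7l2 also has a window at another annotated start, chr19:55741560-55741859, which holds no match. The 3 upstream stretches with a match are shown first, with the matches in capitals, then the upstream part of Wnt4, the gene whose probes both gave a small p below and whose window has no match. The coordinates are chr19:30549568-30549633 on the minus strand for Dkk1, chr1:59481997-59482043 for Fzd7, chr19:55895287-55895320 for Tcf7l2 and chr4:137277385-137277634 for Wnt4, these 3 on the plus strand.
Dkk1: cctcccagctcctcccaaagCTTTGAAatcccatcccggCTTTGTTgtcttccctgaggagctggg
Fzd7: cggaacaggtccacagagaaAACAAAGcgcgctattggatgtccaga
Tcf7l2: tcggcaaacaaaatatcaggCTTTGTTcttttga
Wnt4: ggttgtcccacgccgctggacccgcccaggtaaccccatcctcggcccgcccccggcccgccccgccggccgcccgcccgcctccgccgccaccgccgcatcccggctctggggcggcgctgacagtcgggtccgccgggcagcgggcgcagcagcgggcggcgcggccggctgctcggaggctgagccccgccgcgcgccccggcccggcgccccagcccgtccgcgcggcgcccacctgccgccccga
Dkk1 holds 2 matches and the other 2 stretches 1 each. A match is only a match of letters, and its absence says nothing of binding elsewhere.

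Most of the pathway was detected in the posterior embryo. A spot was called above background where the scanner software did not mark it as near background. By that call 33 of the 47 genes were above background on all 6 arrays, 11 on some of them and 3 on none (Wnt7b, Sfrp5 and Axin2). The rule for testing, above background on all 3 arrays of at least 1 group, was met by 38 of 47 genes (80.9%), against 12848 of 18505 named genes (69.4%). Of the ligands 10 of 13 met it, of the receptors 11 of 14, of the secreted modulators 8 of 10 and of the intracellular genes 9 of 10. The 9 genes that did not were Wnt2, Wnt5b, Wnt7b, Fzd1, Fzd6, Ror1, Sfrp5, Wif1 and Axin2. A probe near background gives no measure of its gene's change, and levels of different probes are not compared.

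No Wnt gene passed the test between genotypes. Differences are null minus wild type of the normalized log2 signal (background-subtracted intensity plus an offset of 50, quantile normalized), with the standard error (SE). They were tested with limma over 21243 probes, of which 1, the probe of Tm7sf3, passed an adjusted p of 0.05 (0.00471%). Fkbp8 itself, tested through the wild-type group alone, did not pass, with a difference of -1.77 ± 0.23 (adjusted p = 0.392 by limma). A gene that did not pass is thus not shown to be unchanged. Every tested Wnt gene had an adjusted p of 0.9999. Of the 38 tested genes 19 were higher and 19 lower in the null arrays, with a median difference of -0.01, beside 0.01 over all 12848 named genes. At an unadjusted p under 0.05 there were 3 of 38 (7.89%), against 3.2% of all named genes, and 2 of these were lower (5.26%), against 1.3%. The null and wild-type values did not overlap for 6 of 38 (15.8%), against 9.22%. Those 6 were Wnt4, Wnt8a, Wnt11, Lrp6, Fzd10 and Nkd2. Wnt11 and Fzd8 entered these counts only through the wild-type group, where they are the brighter. Fzd5, Dkk2 and Tcf7l1 entered only through the null group, where they are the brighter. The counts are therefore also given over the genes above background on all 6 arrays, a set chosen after its values were seen. Of those 33 Wnt genes 16 were higher and 17 lower, with a median of -0.02, 2 had a small p (Wnt4 and Lrp6), against 2.69% of the named genes so chosen, and 5 did not overlap, against 8.54%. The counts are small and the shares were not tested against each other. In whole-tissue RNA, fewer cells of a type and less RNA per cell cannot be told apart.

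**Figure D1:**
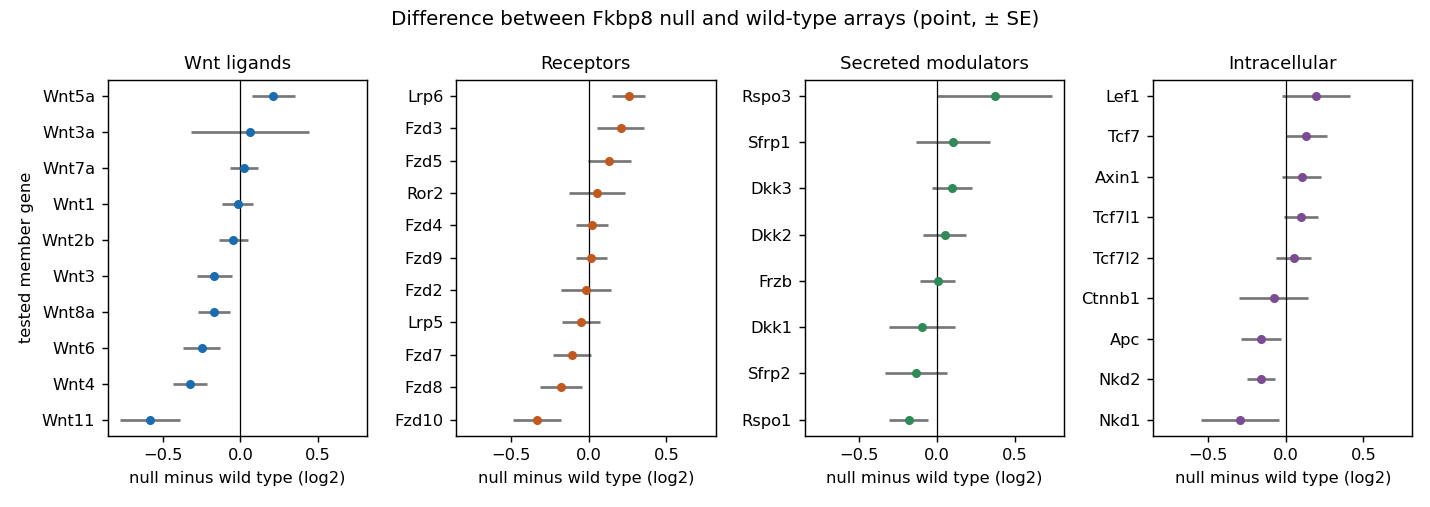
Difference between the Fkbp8 null and wild-type arrays (x axis, log2) for each of the 38 tested genes, by role; points are fitted differences and bars 1 SE on each side. Wnt11, dim and tested through the wild-type group alone, lies farthest from 0, and Rspo3, at 0.37, has the second widest bar (SE 0.37) after Wnt3a (SE 0.38).

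The ligands were the role with the lowest median. The null arrays had the lower value for 7 of the 10 tested and the higher value for 3, with a median of -0.11. Wnt11, tested through the wild-type group alone, is among the 7 and enters the median, so neither is read as a direction of the ligands. Wnt4 had a small unadjusted p, as did Wnt11 with the limit given below. Wnt4, a ligand known from kidney and gonad development, had log2 signals of 7.47, 7.48 and 7.50 in null samples 6, 9 and 11 and of 7.68, 8.00 and 7.76 in wild-type samples 7, 10 and 12. All null arrays lay below all wild-type arrays, and the null values spanned far less than the wild-type values. The difference was -0.32 ± 0.11 (unadjusted p = 0.0171 by limma, 95% interval -0.58 to -0.07). A dimmer probe for Wnt4 gave 6.84, 6.77 and 6.79 in the null and 7.02, 7.19 and 7.01 in the wild-type samples, a difference of -0.27 ± 0.10 (unadjusted p = 0.0215 by limma). Both probes thus ordered the groups the same way, without overlap. Without wild-type sample 10, the brightest, the brighter probe gave -0.23 (unadjusted p = 0.0563 by limma).

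Wnt11, a ligand of the cell polarity branch in gastrulation and axis extension, was dim. Its log2 signals were 6.43, 6.66 and 5.84 in the null and 6.82, 6.99 and 6.86 in the wild-type samples. It was above background on 3 of 3 wild-type arrays and on 1 of 3 null arrays, so it was tested through the wild-type group alone. A gene that enters in this way has to be brighter in that group, and its p is not read. The groups did not overlap and null sample 11 was the lowest. The fitted difference was -0.58, -0.35 without null sample 11 and -1.53 with no offset and a floor of 1, so its size is not settled by these arrays.

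Wnt8a, a ligand of the early posterior embryo, also showed no overlap, in a narrow range. Its log2 signals were 7.02, 7.02 and 7.01 in the null and 7.34, 7.10 and 7.12 in the wild-type samples, a difference of -0.17 ± 0.10 (unadjusted p = 0.130 by limma). Wild-type sample 7 was the bright one, and without it the difference was -0.09. Wnt6, named here because its value was seen to be near these, gave 8.34, 8.01 and 8.08 in the null and 8.38, 8.49 and 8.31 in the wild-type samples. Null sample 6 overlapped the wild-type range, and the difference was -0.25 ± 0.12 (unadjusted p = 0.0636 by limma).

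Marker lists of several tissues differed between the arrays, with no marker past the adjusted threshold. Of 7 tested surface ectoderm markers 7 had the lower mean in the null arrays, 3 of them at an unadjusted p under 0.05, against the 1.3% of all named genes given above, and all 7 were above background on every array. The mean deviation of the list was 0.00, -0.21 and -0.25 in null samples 6, 9 and 11 and -0.03, 0.21 and 0.33 in wild-type samples 7, 10 and 12. Null sample 6 thus lay above wild-type sample 7. Of 7 tested dorsal neural tube markers 6 had the lower mean in the null arrays, 3 of them at a small unadjusted p, against the same 1.3%. The list means were -0.31, -0.13 and -0.08 in the null and 0.11, 0.48 and -0.06 in the wild-type samples. Pax7 of that list was near background on every array, and null sample 11 and wild-type sample 12 lay close together. Of 6 neural progenitor markers 5 had the lower mean in the null arrays, 2 of them at a small unadjusted p, again against 1.3%. Both tested ventral neural tube markers, of 5 on the array, had the higher mean, each at a small unadjusted p, against 244 of 12848 named genes. Of 8 somite and sclerotome markers 7 had the higher mean, 1 of them at a small unadjusted p, against the same 244 of 12848. Pax9 of these was tested through the null group. The somite list means were 0.12, 0.35 and 0.00 in the null and -0.15, -0.57 and 0.25 in the wild-type samples. Without wild-type sample 10, a small unadjusted p in either direction was seen for 2 of 6 surface ectoderm and 1 of 7 dorsal markers. It was seen for 1 of 6 neural progenitor, 2 of 2 ventral and 1 of 8 somite markers, against 6.76% of all named genes. The null arrays then had the lower mean for 5, 6, 4, 0 and 2 markers of these lists, in that order. The somite median was 0.15 in place of 0.31. The part of these tissues in the values of Wnt4, Wnt6 and Wnt11 was not tested.

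**Figure D2:**
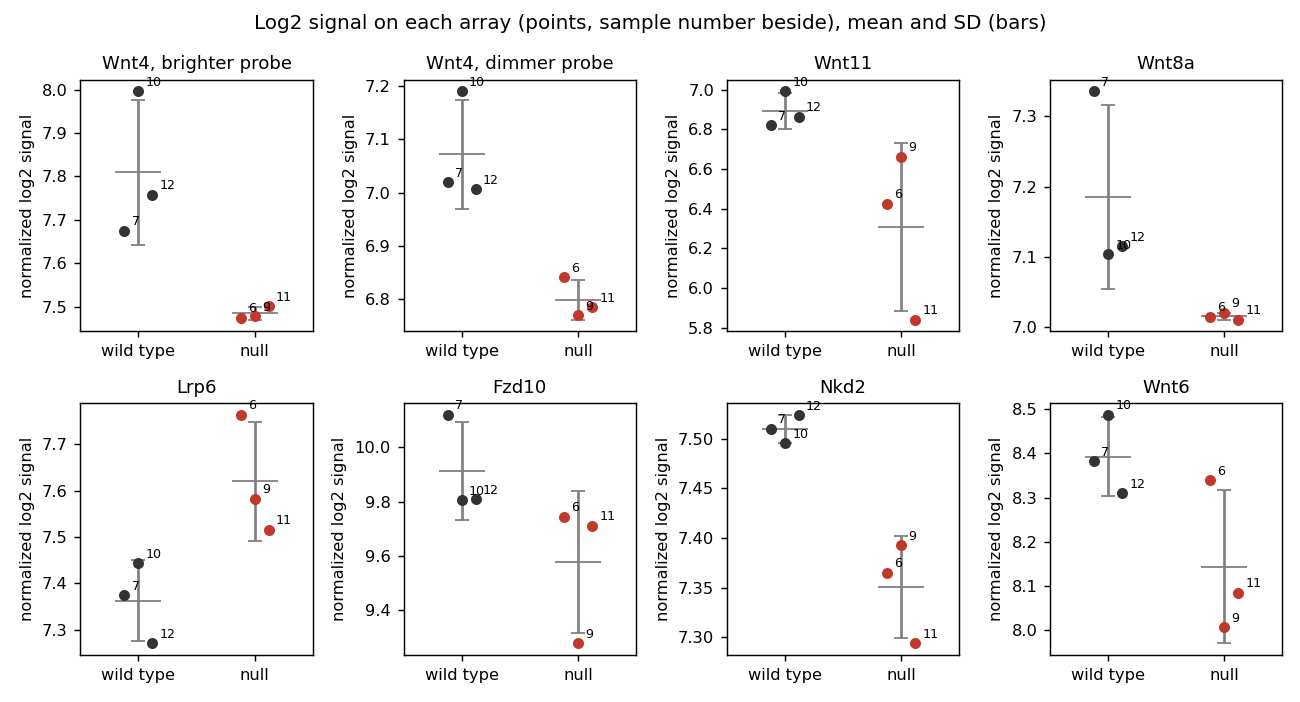
Normalized log2 signal on each array (points, with the sample number) for both Wnt4 probes, Wnt11, Wnt8a, Lrp6, Fzd10, Nkd2 and Wnt6; long bars are group means and whiskers 1 SD (n = 3), and each panel has its own scale. Null and wild-type points do not overlap in any panel except that of Wnt6, where null sample 6 reaches the wild-type range.

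Wnt3a, the tail bud and roof plate ligand, varied more within a genotype than between them. Its log2 signals were 9.02, 8.35 and 9.05 in the null and 9.69, 8.32 and 8.22 in the wild-type samples. Wild-type sample 7 was the brightest of all 6 and wild-type samples 10 and 12 were the dimmest, so the null values lay inside the wild-type range. The difference was 0.06 ± 0.38 (95% interval -0.80 to 0.93), and it became -0.15 with sample 10 left out and 0.54 with sample 7 left out. Wnt5a, a ligand of the cell polarity branch that acts in the outgrowth of the tail bud and limbs, gave 7.40, 7.15 and 7.02 in the null and 7.12, 6.77 and 7.05 in the wild-type samples. Here null sample 6 was the highest and wild-type sample 10 the lowest, with overlap in between (difference 0.21 ± 0.14, 95% interval -0.11 to 0.53). The other tested ligands differed by less: Wnt3, needed for gastrulation, by -0.17, Wnt1 of the roof plate by -0.02, Wnt2b by -0.05 and Wnt7a by 0.02. For Wnt1 the 95% interval ran from -0.24 to 0.21 and for Wnt7a from -0.19 to 0.23. Of the untested ligands, Wnt2 was above background on 3 arrays, Wnt5b on 1 and Wnt7b on none.

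The receptors showed no common direction. Of 11 tested, 6 were higher and 5 lower in the null arrays, with a median of 0.02. Lrp6, the co-receptor that is phosphorylated when a ligand binds, was the one with a small unadjusted p. It had log2 signals of 7.76, 7.58 and 7.52 in the null and 7.37, 7.44 and 7.27 in the wild-type samples. All null arrays lay above all wild-type arrays, by 0.26 ± 0.11 (unadjusted p = 0.0404 by limma). The difference was 0.30 without wild-type sample 10 and 0.19 without null sample 6, the brightest array, where the unadjusted p by limma was 0.131. Its paralogue Lrp5 differed by -0.05 ± 0.12, with 1 spot left out for a quality flag on the array of wild-type sample 7.

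Fzd10, a frizzled receptor of the dorsal neural tube, was the receptor with the largest difference downwards. Its log2 signals were 9.74, 9.28 and 9.71 in the null and 10.12, 9.80 and 9.81 in the wild-type samples. The groups did not overlap, but null samples 6 and 11 lay close to wild-type samples 10 and 12. The difference was -0.33 ± 0.15 (unadjusted p = 0.0610 by limma), and it was -0.18 without null sample 9, the dimmest array, and -0.23 without wild-type sample 7, the brightest. The other tested frizzled genes overlapped between the genotypes. Fzd8 differed by -0.18, Fzd7 by -0.11 (with the spot of null sample 6 left out for its flag), Fzd2 by -0.02, Fzd4 by 0.02, Fzd9 by 0.02 and Fzd5 by 0.13. Fzd8 was tested through the wild-type group and Fzd5 through the null group, each with 2 of 3 arrays above background in the other group. The directions of Fzd8 and Fzd5 are not read. Fzd3, which acts in cell polarity and axon guidance, had 4 probes that did not give 1 direction: the brightest gave 0.21 ± 0.15 with the spot of wild-type sample 10 left out, and the other 2 tested gave 0.00 and -0.08. Ror2, a receptor for Wnt5a, differed by 0.05 ± 0.18. Fzd1 was above background on 4 arrays, and Fzd6 and Ror1 on 3 each.

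None of the 8 tested secreted modulators separated the genotypes. Of these 5 were higher and 3 lower in the null arrays, with a median of 0.03, and the groups overlapped for each of them. Their spread within a group was the widest of the roles, with a median SD of 0.26 on the log2 scale, against 0.12 for the ligands. Dkk1, a secreted inhibitor that binds Lrp5 and Lrp6 and whose upstream stretch is shown above, had log2 signals of 6.65, 6.64 and 7.22 in the null and 7.31, 6.61 and 6.87 in the wild-type samples. One array of each genotype, null sample 11 and wild-type sample 7, was bright, and the other 4 lay between 6.61 and 6.87. The difference was -0.10 ± 0.21 (95% interval -0.59 to 0.39), and 0.09 without wild-type sample 7.

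Rspo3, an R-spondin that strengthens Wnt signals by keeping receptors at the membrane, is described because of its spread. It had log2 signals of 8.46, 8.10 and 8.95 in the null and 8.82, 7.27 and 8.30 in the wild-type samples, the widest range of the tested Wnt genes (1.68). Wild-type sample 10 was the lowest of all arrays, and the difference of 0.37 ± 0.37 became -0.06 without it. Rspo1 stood at 10.01, 10.00 and 10.00 in the null and 10.37, 9.94 and 10.26 in the wild-type samples. Again wild-type sample 10 was the low array: the difference was -0.18 ± 0.12 over all samples and -0.31 without it (unadjusted p = 0.0192 by limma).

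Sfrp1 and Sfrp2 are secreted decoys that resemble frizzled receptors. Sfrp1 had both extremes among the wild-type arrays. It gave 9.88, 9.82 and 10.02 in the null and 9.19, 10.21 and 10.01 in the wild-type samples, with sample 7 low and sample 10 high (difference 0.10 ± 0.24, and -0.20 without sample 7). A second Sfrp1 probe gave -0.06. Sfrp2 gave 7.50, 7.88 and 7.84 in the null and 7.54, 8.32 and 7.78 in the wild-type samples, lowest in null sample 6 and highest in wild-type sample 10 (difference -0.14 ± 0.20, and 0.08 without sample 10). Of the remaining inhibitors Dkk2 differed by 0.05, Dkk3 by 0.10 (the spot of sample 10 left out) and Frzb by 0.00. Dkk2 was above background on 2 of 3 wild-type arrays, so it was tested through the null group. Wif1 was above background on 4 arrays with its brighter probe and on none with the other.

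Among the intracellular genes 5 of 9 tested were higher and 4 lower in the null arrays, with a median of 0.05. Axin2, the feedback inhibitor often read as a measure of Wnt activity, gave no measure here. Its log2 signals were 6.09, 6.27 and 6.30 in the null and 6.10, 6.07 and 6.26 in the wild-type samples, near background on all 6 arrays. Lef1, a transcription factor and a target of the pathway, was bright, with 12.21, 11.73 and 11.93 in the null and 12.23, 11.34 and 11.72 in the wild-type samples. The brightest and the dimmest array were both wild type, samples 7 and 10. The difference was 0.20 ± 0.22 (95% interval -0.31 to 0.70), -0.02 with sample 10 left out and 0.43 with sample 7 left out. A dimmer Lef1 probe gave 0.01 ± 0.10. Tcf7, its partner in the presomitic mesoderm, gave 8.04, 7.91 and 7.81 in the null and 7.89, 7.93 and 7.53 in the wild-type samples, an overlapping pattern with a difference of 0.13 ± 0.13 (95% interval -0.17 to 0.44).

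Nkd2, a cytoplasmic inhibitor that binds Dishevelled, was the intracellular gene without overlap. It had log2 signals of 7.37, 7.39 and 7.29 in the null and 7.51, 7.50 and 7.52 in the wild-type samples. The wild-type values were nearly equal and the null values all lay below them, by 0.16 in the mean (difference -0.16 ± 0.09, unadjusted p = 0.108 by limma). Its paralogue Nkd1, a feedback target, ranged more widely, with 10.21, 9.35 and 9.81 in the null and 10.47, 9.69 and 10.08 in the wild-type samples. The groups overlapped and the difference was -0.29 ± 0.25 over all samples and -0.49 without wild-type sample 10. Of the core components, Ctnnb1, which encodes beta-catenin, differed by -0.08 ± 0.22, the scaffold genes Apc and Axin1 by -0.16 and 0.10, and the transcription factors Tcf7l1 and Tcf7l2 by 0.10 and 0.05. Tcf7l1 was above background on 3 null arrays and 1 wild-type array, so it was tested through the null group.

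**Figure D3:**
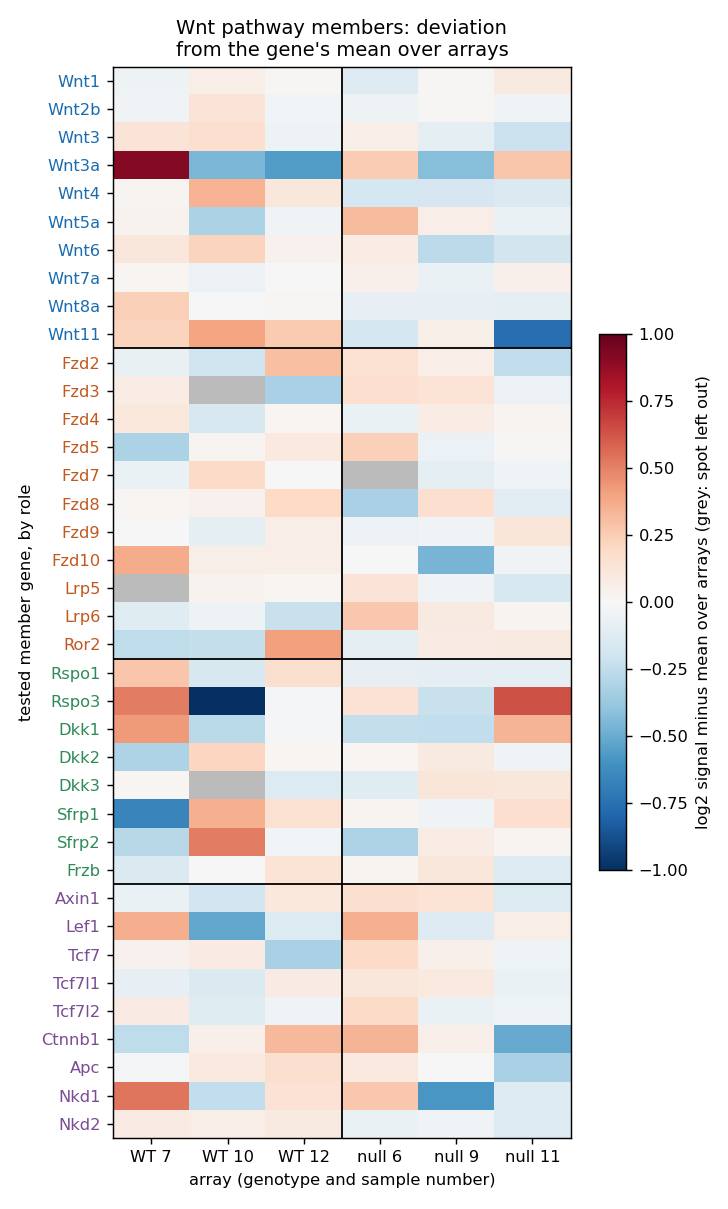
Deviation of each tested gene from its mean over the arrays (colour, log2, scale ends at -1 and 1), by role from ligands at the top to intracellular genes at the bottom; columns are arrays and grey marks spots left out. Wnt3a, Rspo3, Lef1 and Nkd1 change from array to array within a genotype, and Wnt4 and Nkd2 lie on 1 side of their mean within each genotype.

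Some Wnt genes varied widely between arrays. A range of over 1 on the log2 scale over all 6 arrays was seen for 5 of 38 tested Wnt genes (13.2%), Wnt3a, Wnt11, Rspo3, Sfrp1 and Nkd1, against 4.48% of all named genes. Within 1 genotype the range passed 1 for 3 of the 38 (7.89%), Wnt3a, Rspo3 and Sfrp1, each among the wild-type arrays, against 3.38% of all named genes. Tail bud and presomitic markers differed strongly between arrays too. The mean deviation of their list was 0.16, -0.15 and 0.11 in null samples 6, 9 and 11 and 0.40, -0.78 and 0.27 in wild-type samples 7, 10 and 12. All 10 markers of that list were tested, and sample 10 was the lowest array for 8 of them. T, the mesoderm factor and Wnt target, had a log2 signal of 7.99 in sample 10 and of 9.88 to 11.11 in the other samples. Its difference was 0.55 ± 0.68 over all arrays and -0.36 without sample 10. Sp5, another direct target, stood at 8.20 in sample 10 and at 8.94 to 9.92 elsewhere, with a difference of 0.34 ± 0.38 that became -0.07. Blood markers were highest in sample 10 for all 5 tested. Over the Wnt genes measured on every array, sample 10 was the lowest for 10 of 34 and the highest for 8. Over all named genes measured on every array it was the lowest for 2215 of 12187 and the highest for 2345. The part of the tail bud and blood content, or of sex, in the values of Wnt3a, Rspo3, Lef1 and Nkd1 was not tested.

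**Figure D4:**
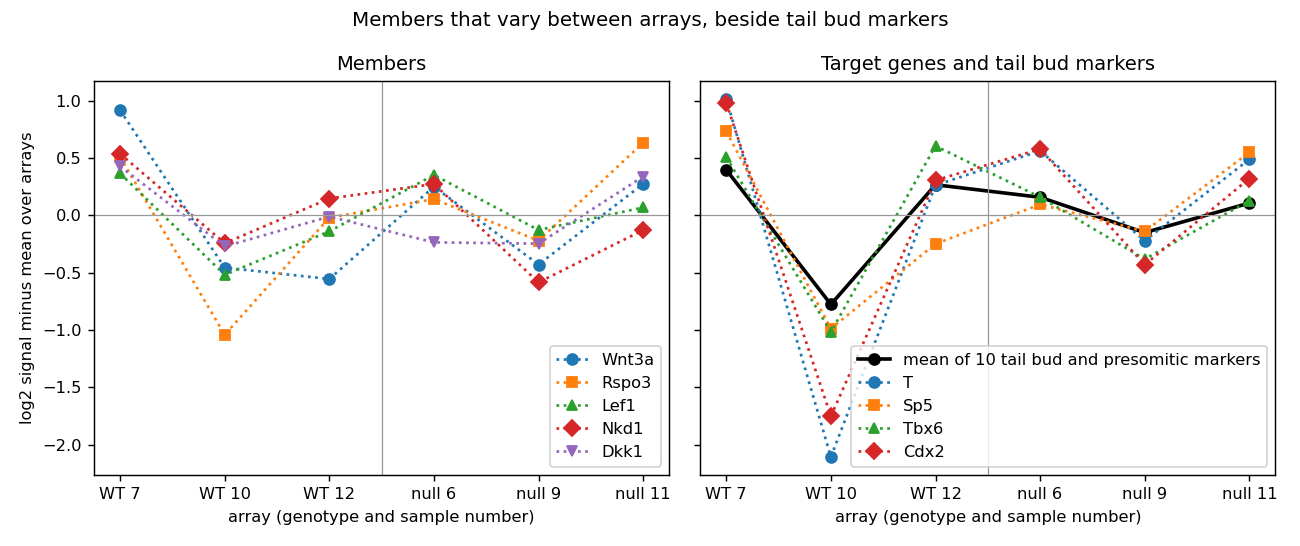
Deviation from the mean over arrays (log2) on each array for 5 Wnt genes (left) and for 4 target genes with the mean of 10 tail bud and presomitic markers (right); lines only join the points of a gene, and the arrays have no order. Sample 10 is the lowest array for Rspo3, Lef1, Dkk1, T, Sp5, Tbx6, Cdx2 and the marker mean, while Wnt3a is lowest in sample 12 and Nkd1 in null sample 9.

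Leaving out wild-type sample 10 moved genes to the other side of 0 in both directions. Wnt3a, Wnt7a, Fzd4, Fzd9, Ror2, Rspo3 and Lef1 moved below 0, and Wnt1, Wnt2b and Sfrp2 moved above it. Over the 37 Wnt genes tested both with and without it, 18 had the lower mean in the null arrays with it and 22 without it, with medians of 0.00 and -0.03. Without it 3 of the 37 had an unadjusted p under 0.05, against 6.76% of the named genes tested in both, and these were Wnt11, with the limit given above, Lrp6 and Rspo1. Ror1, Wif1 and Fzd6 passed the filter only through the 2 wild-type arrays that remained, and their values are not read. No Wnt gene passed the adjusted threshold there, where the smallest adjusted p was 0.789.

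Few differences were seen among other genes of the pathway, and none of the 56 tested passed the adjusted threshold. Of 6 further ligands 4 were tested. Wnt16 had 6.65, 6.76 and 6.57 in the null and 6.42, 6.34 and 6.41 in the wild-type samples. The groups did not overlap, but 1 of the 3 wild-type arrays was above background, so it was tested through the null group, where it is the brighter, and its p is not read. Of 13 tested genes for ligand secretion and receptor control, such as Wls and Znrf3, 6 were higher and 7 lower, and none had a small p or separated the genotypes. Of 23 tested cytoplasmic and nuclear components 13 were higher and 10 lower. Tle4, a corepressor that binds Tcf proteins, had 9.60, 9.79 and 9.70 in the null and 9.39, 9.32 and 9.42 in the wild-type samples. All null arrays lay above all wild-type arrays, by 0.32 ± 0.10 (unadjusted p = 0.00983 by limma). Tle1, its paralogue, was higher without overlap by 0.18 ± 0.11, while the chromatin remodeller gene Chd8 was lower without overlap, with a difference of -0.22 ± 0.12. The kinase gene Gsk3a did not overlap either, with a difference of -0.11 ± 0.09, but it was above background on 2 of 3 null arrays. It was thus tested through the wild-type group, where it is the brighter, and its direction is not read. Of 16 tested target genes 10 were higher and 6 lower, and Myc alone did not overlap, at 9.75, 10.07 and 9.84 in the null and 9.68, 9.54 and 9.69 in the wild-type samples (difference 0.25 ± 0.11, unadjusted p = 0.0598 by limma). Without sample 10, 12 of the 16 target genes were lower in the null arrays, with a median of -0.14 in place of 0.06. Over all named genes 5935 of 12597 were then lower, with a median of 0.01. Sample 10 was the lowest array for 10 of the 16 target genes. T, Tbx6, Cdx2, Msgn1, Fgf8, Dll1 and Cyp26a1 of these are also on the tail bud list. The part of tail bud content in this shift was not tested.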

How the data were processed

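The 6 arrays were quantified by the authors with CodeLink Expression Analysis 4.1, per the file headers, whose output lists raw and normalized intensity with a quality flag for every spot. The deposited raw intensity was already corrected for local background, since between 38 and 67 transcript spots on an array had values below 0. Dividing it by the array's median gives the normalized intensity. The authors' deposited value table holds that normalized intensity times 1 factor per array (1.01 to 1.02), on a linear scale and not centred by gene. Its column medians were 1.009, 1.003 and 1.004 in null samples 6, 9 and 11 and 1.008, 1.009 and 1.006 in wild-type samples 7, 10 and 12. Genotypes came from the labels. Every header gives the same analysis date, which need not be the date of hybridisation, and no label names a batch, so none was tested. The median negative control was 21.8, 22.8 and 22.2 in samples 6, 7 and 10 and 18.7, 19.3 and 18.5 in samples 9, 11 and 12.

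For the fit, raw intensities below 0 were set to 0, an offset of 50 was added, log2 was taken and the transcript spots were quantile normalized. Irregular, contaminated and defective spots, 391 to 543 on each array by their flags, were not used. Probes entered the fit if every array of at least 1 genotype was not flagged as near background and each genotype had 2 usable values. Two-sided p-values came from lmFit and eBayes of limma 3.58.1 (R 4.3.3), were adjusted by Benjamini-Hochberg across the 21243 probes and read at a threshold of 0.05; the fit was tested on simulated data. A gene with several probes is given by its brightest tested one, and the others are given where they were tested. Symbols came from the platform annotation (21615 spots with 1 symbol, 681 with several, which were not named), updated by Entrez number in RefSeq for 21487, and 497 spots were named by accession. With 3 arrays per genotype, precision is limited by their number.

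The genes and lists were chosen with earlier results of these data known. Values on every array are given by a rule: an unadjusted p under 0.05, no overlap, a difference over 0.5, sample 10 apart from all others by over 1, or the genes Wnt3a, Wnt5a, Axin2, Lef1, Tcf7 and Dkk1. In the other pathway lists, the genes with a small p or no overlap and T and Sp5 are named. Wnt6, Rspo1, Rspo3, Sfrp1, Sfrp2, Nkd1, Lhx2, Tm7sf3, Xist and Eif2s3y were chosen after their values were seen. The alternatives were other offsets, scalings, filters and moderation, array weights, the authors' values and leaving out each sample.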

Additional observations from a re-analysis of the deposited data

How the results depend on the processing

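No Wnt gene passed the adjusted threshold under any of the 16 alternative settings, where the smallest adjusted p was 0.789. The count of probes past the threshold was 1, but 0 with a floor of 1 and no offset, with median scaling, with cyclic loess, with the scanner software's normalized intensity and with the authors' value table, and 2 with every spot kept whatever its flag. Leaving out 1 sample gave 0 to 1, with 0 without null sample 6. Probes at an unadjusted p under 0.05 numbered 654, but 292 with median scaling, 1354 with sample 10 left out, 401 with sample 9 left out and 1096 with no filter on dim probes. Wnt genes at an unadjusted p under 0.05 numbered 3, but 5 with array weights (Wnt4, Wnt6, Wnt11, Fzd10 and Lrp6), 2 with median scaling and 2 over genes above background on all 6 arrays, an alternative chosen after seeing the data. Wnt4 had an unadjusted p under 0.05 in 14 of 16 settings and Lrp6 in 12. The median difference over tested Wnt genes stayed between -0.07 and 0.02. Of 600 recomputed differences of single genes 12 moved by more than the spread between replicates, 4 of them for Wnt11, which reached -1.56 with the authors' values and -0.97 with an offset of 16. The sign changed in some setting for 18 of 38 genes, the largest of them Rspo3, and 20 kept it. The count of genes above background was 38, against 43 with 2 of 3 arrays of a group, 33 with all 6 arrays and 38 with the negative controls' 95th percentile. No paired analysis was possible because the genotypes share no sample number and no label pairs samples. Dim probes limit Axin2 and the other untested genes, and 3 samples per genotype limit all differences.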

Other observations

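Wnt5b, a ligand of the cell polarity branch, was above background on 1 null array and no wild-type array, with log2 signals of 6.64, 6.23 and 6.31 in the null and 6.04, 6.01 and 6.20 in the wild-type samples. Ror2 had its highest value in wild-type sample 12, at 7.42 against 6.76 to 7.10 on the other arrays. Its difference was 0.05 over all arrays and 0.27 without that sample. Leaving out the highest wild-type array has to raise the difference, so its p is not read. Beta-catenin, by the Ctnnb1 probe, was lowest in null sample 11 at 8.96 and between 9.21 and 9.80 on the other arrays. Among the components outside the main list Dact1, which binds Dishevelled, stood at 9.20 in wild-type sample 10 and at 10.02 to 10.21 on the other arrays. All these genes were chosen after their values were seen.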
